A study of Homo sapiens with 18 samples.

Results

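Keratins are the intermediate filament proteins of epithelial cells, and 10 keratin genes were described across 9 clones of HCT116, an established human colorectal carcinoma line. KRT23 was chosen by its measured signal, which was lower in the IDH1 R132H and IDH2 R172K clones, and KRT7, KRT8, KRT10, KRT15, KRT18, KRT19, KRT20, KRT80 and KRT86 as its family. On the array 9 of the 10 genes had 15 probe sets among 54675 in all. No probe set carried the symbol KRT86, a hair keratin, which therefore has no value here. Each clone was grown for 6 days without treatment, and its total RNA was amplified, labelled with biotin and measured on 2 arrays, one for each biological replicate, which gave 18 arrays. The clones carried IDH1 R132H/+ (2C11 and 2H1), IDH1 R132C/+ (3A4), IDH2 R140Q/+ (8G12 and 17H5) or IDH2 R172K/+ (47C2 and 45G3). The wild-type pair was 16F8, which was targeted with IDH1 R132C/+ but does not express that allele, and the parental line. All 9 share the HCT116 background, and each is 1 line, so a genotype is represented by 1 or 2 clones and clone and genotype cannot be told apart for R132C. IDH1 and IDH2 encode isocitrate dehydrogenases, and the series asked how their mutations relate to the epithelial-mesenchymal transition, in which cells give up epithelial features for mesenchymal ones.

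A keratin filament is built from pairs, each of an acidic type I and a basic type II chain. Here 6 members were type I (KRT10, KRT15, KRT18, KRT19, KRT20 and KRT23) and 4 were type II (KRT7, KRT8, KRT80 and KRT86). Simple epithelia such as the colon lining rest on KRT8 paired with KRT18, with KRT19 beside them and KRT20 added as colonocytes mature. KRT7 marks ductal and glandular epithelia and is usually low in colon. KRT10 and KRT15 are best known from skin, where KRT10 belongs to the differentiated layers and KRT15 to basal cells and the hair follicle bulge. KRT80 is a widely expressed type II keratin, and KRT23 is a type I keratin known to be induced by histone deacetylase inhibitors.

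The deposited values are MAS5 signals, in linear units that follow the brightness of a probe set after the authors scaled every array to 1 level. Signals of different probe sets cannot be compared as transcript levels. Changes were computed on log2 of the signal plus 2.2, and limma adjusted p-values over 12537 genes with a threshold of 0.05. Replicate arrays correlated at 0.9842 to 0.9897, against 0.9698 to 0.9879 for arrays of different clones. The spiked poly-A controls were 1.67-fold brighter in 4 arrays (2C11 replicate 1, 8G12 replicate 2, 16F8 replicate 1 and parental replicate 1). The epithelial markers KRT8, KRT18, KRT19, CDH1 and EPCAM were above the filter on low values, and so were the mesenchymal genes ZEB1 and VIM, with signals of up to 443.0 and 416.1. Of 20 genes of mature colonocytes only CA2 and SLC26A2 passed it, and KRT5 and KRT14 of squamous epithelium did not. Among 12 stromal and blood markers, 10 stayed at or under a signal of 17.2, and only COL1A1 and ACTA2 passed the filter. The 12 signals summed to 336.3 to 463.6 per clone, a sum of probe set brightness rather than of transcripts. Titles call the replicates biological without saying whether cultures were separate, so p-values measure the spread between such arrays.

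KRT23 separated the clones more widely than any other member. Its signals were 46.2 and 30.8 in 2C11 and 31.2 and 35.7 in 2H1, the R132H clones. The R132C clone 3A4 gave 31.6 and 35.3. In the R172K clones KRT23 read 55.6 and 53.0 in 47C2 and 72.2 and 115.5 in 45G3. All 10 arrays of these 5 clones lay low, between 30.8 and 115.5. The R140Q clones were higher, 8G12 at 534.6 and 516.4 and 17H5 at 299.9 and 259.2. The wild-type clones gave 368.7 and 307.5 in 16F8 and 711.2 and 653.9 in parental. These 8 arrays ran from 259.2 to 711.2, so the ranges did not overlap. The highest clone mean, in parental, was 20.4-fold the lowest, which 2H1 and 3A4 shared.

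**Figure D1:**
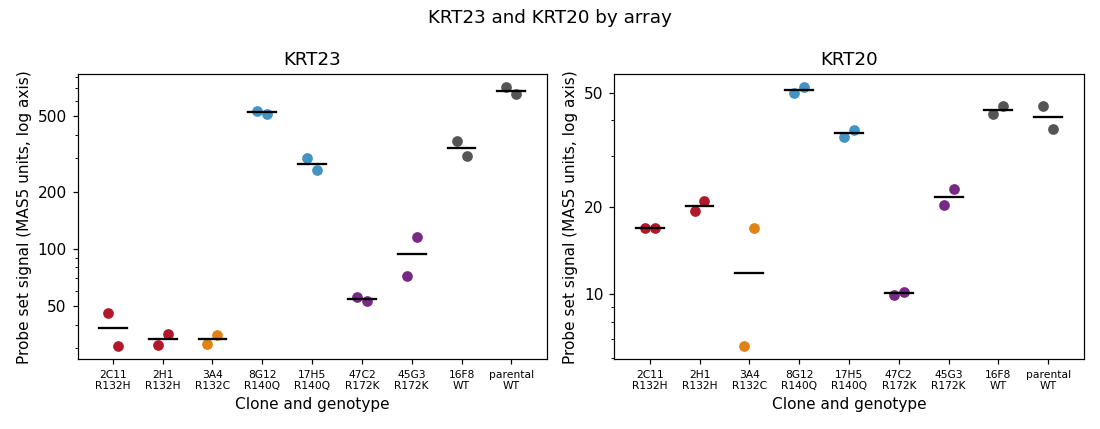
Signals of KRT23 (left) and KRT20 (right) in MAS5 units on log axes, for the 9 clones along the horizontal axis; points are the 2 arrays of a clone and lines their mean. For KRT23 the R132H, R132C and R172K arrays lie at 30.8 to 115.5 and the others at 259.2 to 711.2; for KRT20 they lie at 6.6 to 23.2 and 35.1 to 52.2.

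Because KRT23 was chosen for this pattern, its changes are given without a test. Against parental the log2 change was -4.10 in 2C11, -4.26 in 2H1 and -4.26 in 3A4. It was -3.60 in 47C2 and -2.87 in 45G3. The other clones were also below parental, by -0.37 in 8G12, -1.28 in 17H5 and -1.01 in 16F8. Averaged over clones, KRT23 was 36.0 ± 3.57 in R132H (SD, n = 2 clones), 402.5 ± 174 in R140Q, 74.1 ± 27.97 in R172K and 510.3 ± 244 in wild-type. The mean of the R140Q pair was thus within 1 SD of the wild-type mean. Between the genotypes the log2 differences from wild-type were -3.67 for R132H, -3.76 for R132C, -0.32 for R140Q and -2.73 for R172K. From highest to lowest the clones ran parental, 8G12, 16F8, 17H5, 45G3, 47C2, 2C11, 2H1 and 3A4, and of the 8 neighbouring pairs only 2C11 with 2H1 and 2H1 with 3A4 had overlapping arrays.

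KRT23 was not picked on the R140Q clones, so their difference could be tested. It was picked on low signals in the R132H and R172K clones, so tests within those pairs depend on the choice. Nothing is concluded from those tests. KRT23 was lower in 17H5 than in 8G12, both R140Q, by a log2 change of -0.91 ± 0.20 (SE, limma adjusted p = 0.0189). In that comparison 1.79% of all genes were lower past the threshold. The call was lost without 8G12 replicate 1 (-0.88, adjusted p = 0.114), 8G12 replicate 2 (-0.93, 0.0816) or 17H5 replicate 2 (-0.80, 0.199), and without the 4 arrays of bright poly-A controls (-0.93, 0.0563). The R172K clone 47C2 was -0.73 from 45G3, short of the threshold (adjusted p = 0.0607, with 2.94% of all genes past it), and this difference passed with quantile normalization (-0.72, 0.0436), without 2C11 replicate 1 (0.0385) or replicate 2 (0.0378), and without 45G3 replicate 1 (-1.06, 0.0096). For the R132H pair the difference of 2H1 from 2C11 was -0.17, with a 95% interval of -0.59 to 0.26 and adjusted p = 0.728.

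Among the 8 other members, 29 of 64 changes against parental passed the test. In 2C11 4 of the 8 were lower, as were 12.5% of all genes. In 2H1 3 were lower (16.3% of all genes) and 1 higher (14.7%), and in 3A4 2 were lower (19.6%) and 1 higher (17.6%). Lower members numbered 3 in 8G12 (7.05% of all genes), 4 in 17H5 (4.97%), 4 in 47C2 (13.8%), 4 in 45G3 (14.7%) and 3 in 16F8 (9.57%). Their median log2 change lay between -0.51 in 45G3 and 0.04 in 3A4, while the median over all genes lay between -0.02 and 0.04. These comparisons share the 2 parental arrays, so a value of parental enters all of them. The share of all genes called in several clones at once was not computed.

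**Figure D2:**
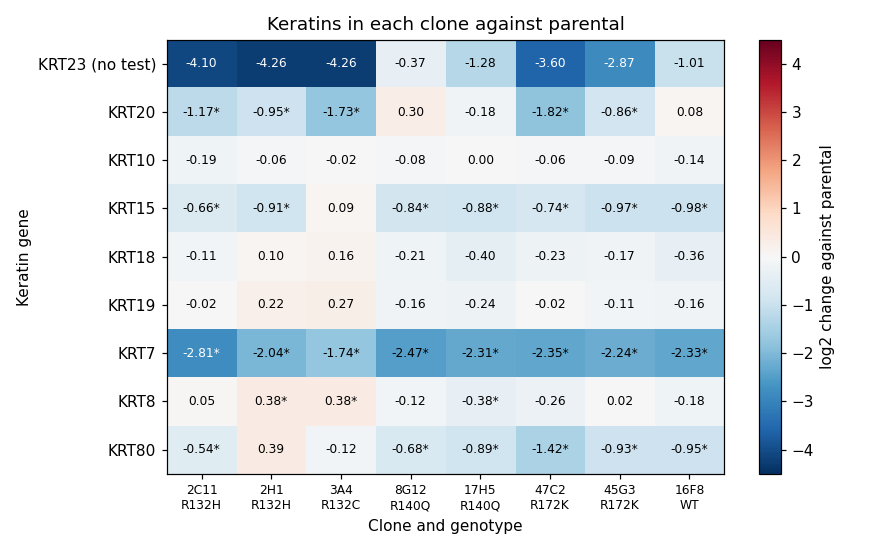
Log2 change of each keratin (rows) in each targeted clone (columns) against parental, with colour from blue (lower) to red (higher) and an asterisk where limma's adjusted p passed 0.05; KRT23 has no test. KRT7 is lower in all 8 clones, KRT20 in the 5 clones with low KRT23, and KRT10, KRT18 and KRT19 carry no asterisk.

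KRT20, the type I keratin of maturing colonocytes, was lower in the R132H, R132C and R172K clones. Its signals were 17.0 and 17.0 in 2C11, 19.4 and 21.1 in 2H1, 6.6 and 17.0 in 3A4, 9.9 and 10.2 in 47C2, with 20.3 and 23.2 in 45G3. The clone 8G12 gave 49.7 and 52.2, and 17H5 gave 35.1 and 37.1. Wild-type signals were 42.0 and 44.8 in 16F8, and 44.9 and 37.5 in parental. The 10 arrays of the first 5 clones, a grouping that follows KRT23, ran from 6.6 to 23.2 with a median of 17.0. The other 8 ran from 35.1 to 52.2 with a median of 43.4. The share of all genes that separate in this way was not computed, so nothing is read from the gap. By Pearson r with KRT23 over the clone means KRT20 ranked 114 of 12525 genes. KRT20 is a dim probe set, at or above the array's median in 15 of 18 arrays, with array medians of 12.3 to 15.6. The 3 arrays below it were both of 47C2 and 1 of 3A4, where the size of a change is least certain.

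Against parental KRT20 fell by 1.17 on the log2 scale in 2C11 (adjusted p = 0.00434), by 0.95 in 2H1 (0.0139) and by 1.73 in 3A4 (0.000111). It fell by 1.82 in 47C2 (0.000121) and by 0.86 in 45G3 (0.026), each with an SE of 0.27. The changes of 0.30 in 8G12 (adjusted p = 0.498), -0.18 in 17H5 (0.733) and 0.08 in 16F8 (0.879) did not pass. Against 16F8 it was lower in 2C11 (-1.25, 0.0203), 2H1 (-1.02, 0.0168), 3A4 (-1.81, 0.000117) and 47C2 (-1.90, 0.000255), and 45G3 did not pass (-0.93, 0.0972). Of all genes 2.26%, 16.5%, 26.3% and 6.41% passed in these 4 clones against 16F8. The calls in 2H1 and 45G3 rested on single arrays. Without parental replicate 1 they were -0.82 (adjusted p = 0.0956) and -0.73 (0.135), and without 2H1 replicate 1 the call in 2H1 was lost too (-0.89, 0.0803). The call in 45G3 was also lost without parental replicate 2 (-0.98, 0.0528), 45G3 replicate 1 (-0.77, 0.109) or 45G3 replicate 2 (-0.94, 0.0633), and with no filter on low values (0.0567). Without the 4 arrays of bright poly-A controls KRT20 passed in 3A4 and 47C2 alone, and 2C11 was at -1.05 (0.117), 2H1 at -0.82 (0.126) and 45G3 at -0.73 (0.17). Between the clones of a genotype KRT20 passed no test, with 47C2 at -0.96 from 45G3 (adjusted p = 0.0677), although that difference passed when either 3A4 array was left out (0.0137 and 0.0148).

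KRT20 and KRT10 lie near KRT23 in the type I keratin cluster of chromosome 17. Their promoters are shown because KRT20 differed between clones, while the brightest probe set of KRT10 passed in none. Both are on the minus strand in the RefSeq annotation of GRCh38.p14, KRT20 at chr17:40885193-40885492 and KRT10 at chr17:40822565-40822864, each 250 bases before and 50 after the start. Capitals mark matches to 3 motifs searched on both strands: the E-box CAGGTG or CACCTG that ZEB1 binds, TTTATG or CATAAA of caudal-type homeobox factors, and the TATA box TATAAA or TTTATA.
KRT20: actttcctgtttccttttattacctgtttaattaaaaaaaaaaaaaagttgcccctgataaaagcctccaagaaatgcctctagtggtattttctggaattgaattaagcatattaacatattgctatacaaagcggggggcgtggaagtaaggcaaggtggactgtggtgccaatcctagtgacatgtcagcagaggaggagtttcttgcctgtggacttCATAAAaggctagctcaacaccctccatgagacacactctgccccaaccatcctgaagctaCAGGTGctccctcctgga
KRT10: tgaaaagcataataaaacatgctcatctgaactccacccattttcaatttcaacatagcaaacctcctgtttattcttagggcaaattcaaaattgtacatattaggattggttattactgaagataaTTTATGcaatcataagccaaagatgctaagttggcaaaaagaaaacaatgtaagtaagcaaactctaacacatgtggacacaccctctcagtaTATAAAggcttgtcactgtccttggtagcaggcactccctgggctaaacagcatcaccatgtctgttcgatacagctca
In KRT20 CATAAA stood at position -29 and CAGGTG at position 33 from the start. In KRT10 TATAAA stood at position -29 and TTTATG at -122. No marked match overlapped another. Of 35116 promoters of this length, 20.6% held the E-box, 10.6% the homeobox motif and 11.5% the TATA box, so each match is common. The promoter of KRT8, on chromosome 12, held none of the 3, and sequences were matched for 3 of the 10 members.

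KRT7, the type II keratin of ductal epithelia, was lower in all 8 targeted clones, including 16F8. It measured 17.5 and 18.2 in 2C11, 33.5 and 30.5 in 2H1, 37.3 and 42.4 in 3A4, 26.6 and 20.1 in 8G12, and 22.7 and 30.0 in 17H5. It gave 22.2 and 28.8 in 47C2, 23.6 and 32.0 in 45G3, and 22.4 and 29.7 in 16F8, against 143.7 and 133.1 in parental. The parental arrays thus stood apart from the other 16. How many of all genes separate parental in this way was not computed, so nothing is read from the gap itself. Log2 changes ran from -2.81 in 2C11 to -1.74 in 3A4, each ± 0.23, with adjusted p between 1.69e-07 and 1.69e-05. They passed in each of 29 alternative settings with parental as the reference. A second probe set read 2.6 to 18.5 in the targeted clones against 59.4 and 65.3 in parental, and another read 0.2 to 16.5 against 85.6 and 83.8. The last of these reached the filter only through parental, where it is high, so its difference is given as values alone, and the setting that took the probe set of highest variance rested on it. The other passed in all 8 clones, and the remaining probe set, at 0.4 to 6.2, was under the filter. Compared with 16F8, no mutant clone passed for KRT7, and parental was higher by 2.33.

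KRT15, a keratin of basal and stem cells of skin, was lower than in parental in all targeted clones except 3A4. Its signals were 238.2 and 268.8 in 3A4, overlapping 254.3 and 220.5 in parental. Over the other 7 clones the 14 arrays ran from 113.4 to 164.4, so that none reached either of these clones. How many of all genes separate in this way was not computed, so nothing is read from the gap itself. The log2 changes of those 7 lay between -0.97 in 16F8 and -0.66 in 2C11 (SE 0.16, adjusted p 0.000278 to 0.00615), and 3A4 was at 0.09 (0.677). The call in 2C11 was lost without 2C11 replicate 1 (-0.52, adjusted p = 0.0727), without parental replicate 1 (-0.55, 0.0585) and without the 4 arrays of bright poly-A controls (-0.42, 0.236). The call in 47C2 was lost without its replicate 1 (-0.54, 0.0625). Against 16F8 only 3A4 (1.07, 0.000115), where 26.3% of all genes passed, and parental (22%) were higher.

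KRT80 was lower than in parental in 6 clones and highest in 2H1. It read 81.9 and 87.9 in 2C11, 150.0 and 177.3 in 2H1, 112.1 and 115.6 in 3A4, and 43.1 and 46.9 in 47C2, the lowest clone. In 8G12, 17H5, 45G3 and 16F8 it ran from 57.6 to 80.6, against 140.5 and 109.8 in parental. The log2 change was -1.42 ± 0.17 in 47C2 (adjusted p = 8.36e-06), -0.93 in 45G3, -0.95 in 16F8, -0.89 in 17H5, -0.68 in 8G12 and -0.54 in 2C11 (0.0223). Neither 2H1 (0.39, 0.0857) nor 3A4 (-0.12, 0.584) passed. The calls in 2C11 and 8G12 were lost without parental replicate 1 (-0.36 and -0.50, adjusted p = 0.199 and 0.0871) and without the 4 arrays of bright poly-A controls (-0.31 and -0.44, 0.395 and 0.24). The 2C11 call was also lost without 2C11 replicate 1 (0.111) or replicate 2 (0.0622), and the 8G12 call without 8G12 replicate 2 (0.0617). Between the R132H clones KRT80 was higher in 2H1 than in 2C11 by 0.93 ± 0.17 (adjusted p = 0.00246), where 2.14% of all genes were higher. This call was lost without 2H1 replicate 2 (0.81, 0.0504). With 16F8 as the reference no clone passed as lower. KRT80 was then higher in 2H1 (1.335, adjusted p = 2.14e-05), 3A4 (0.82, 0.00133) and parental (0.95, 0.000571). In these comparisons 16.5%, 26.3% and 22% of all genes passed in either direction.

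**Figure D3:**
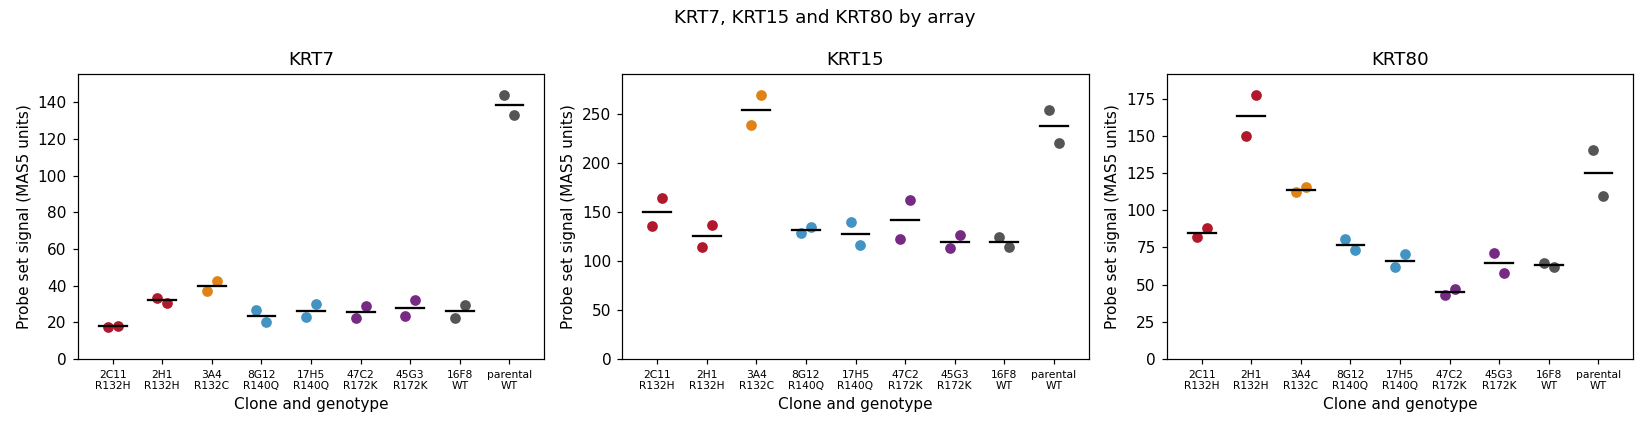
Signals of KRT7, KRT15 and KRT80 in MAS5 units from 0, for the 9 clones along the horizontal axis; points are the 2 arrays of a clone and lines their mean. KRT7 is at 133.1 or more only in parental, KRT15 is at 220.5 or more only in 3A4 and parental, and KRT80 is highest in 2H1 at 150.0 and 177.3.

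KRT8 and KRT18, the obligate pair of simple epithelia, and KRT19 stayed bright in every clone. KRT8 read 1757.5 and 2072.6 in 2C11, 2552.5 and 2274.1 in 2H1, 2334.6 and 2485.5 in 3A4, and 1485.4 and 1361.7 in 17H5, against 1722.8 and 1976.9 in parental. In 8G12, 47C2, 45G3 and 16F8 it ran from 1498.3 to 1955.9. It was higher in 2H1 (log2 change 0.38, adjusted p = 0.0156) and 3A4 (0.38, 0.0133) and lower in 17H5 (-0.38, 0.0398), each ± 0.11, and highest over lowest clone was 1.70-fold. All 3 calls are close to the threshold. Without parental replicate 1 those in 2H1 (0.145) and 3A4 (0.123) were lost, and they were lost without 2H1 replicate 1 (0.146), without 3A4 replicate 2 (0.0969) and without the 4 arrays of bright poly-A controls (0.0779 and 0.0658). The 17H5 call was lost in 10 of 29 alternative settings, with an adjusted p of up to 0.249.

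KRT18 ran from 2979.8 in 17H5 to 5009.0 in 3A4 over all arrays, and its neighbours in the order of clones all overlapped. No clone passed, with 17H5 nearest at -0.40 (adjusted p = 0.0513) and 16F8 at -0.36 (0.0548). Both are borderline: 17H5 passed as lower without parental replicate 1 (-0.57, 0.023), or without either array of 2C11, 16F8 or 8G12 (0.043 to 0.0492). 16F8 passed without parental replicate 1 (-0.53, 0.0172), either 2C11 array (0.046 and 0.0456) or its own replicate 2 (-0.49, 0.0388). Without the 4 arrays of bright poly-A controls KRT18 was lower in 17H5 (-0.57, 0.0065), 47C2 (-0.40, 0.0172) and 45G3 (-0.34, 0.0368), whereas with quantile normalization it was lower in 16F8 (-0.24, 0.00868) and higher in 45G3 (0.17, 0.0402), so its direction in 45G3 depends on the scaling. KRT19 ran from 2632.4 to 4292.8, and its log2 changes lay between -0.24 in 17H5 and 0.27 in 3A4 (0.0874). It passed as higher in 3A4 without parental replicate 2 (0.40, 0.0459), and in 2H1 (0.22, 0.0134) and 3A4 (0.21, 0.0134) with quantile normalization. A second KRT19 probe set, which passed in no clone against parental, ordered the clones otherwise. It averaged 2416.3 in 3A4, 2229.75 in 47C2 and 2161.1 in 2H1, and was lowest in 2C11 at 1661.2. With 16F8 as the reference, each of the 3 genes passed as higher in 2H1, by 0.56 (KRT8), 0.45 (KRT18) and 0.39 (KRT19), where 16.5% of all genes passed in either direction. In 3A4 the differences from 16F8 were 0.56, 0.52 and 0.44, and all 3 passed, as did 26.3% of all genes. The probe sets of KRT8 and KRT18 are of a class that can match other transcripts, and both genes have many pseudogenes, so their signals are uncertain. KRT10, the type I keratin of differentiated epidermis, lay at 687.0 to 866.4 in all 18 arrays by its brightest probe set, and its log2 changes from -0.19 to 0.00 did not pass. Its other probe sets, also open to cross-matching, ran from 469.2 to 837.5 and from 453.1 to 755.2, both with their lowest mean in 47C2. The first did not pass there (-0.50, limma adjusted p = 0.0871) and the second passed as lower (-0.46, 0.0355).

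**Figure D4:**
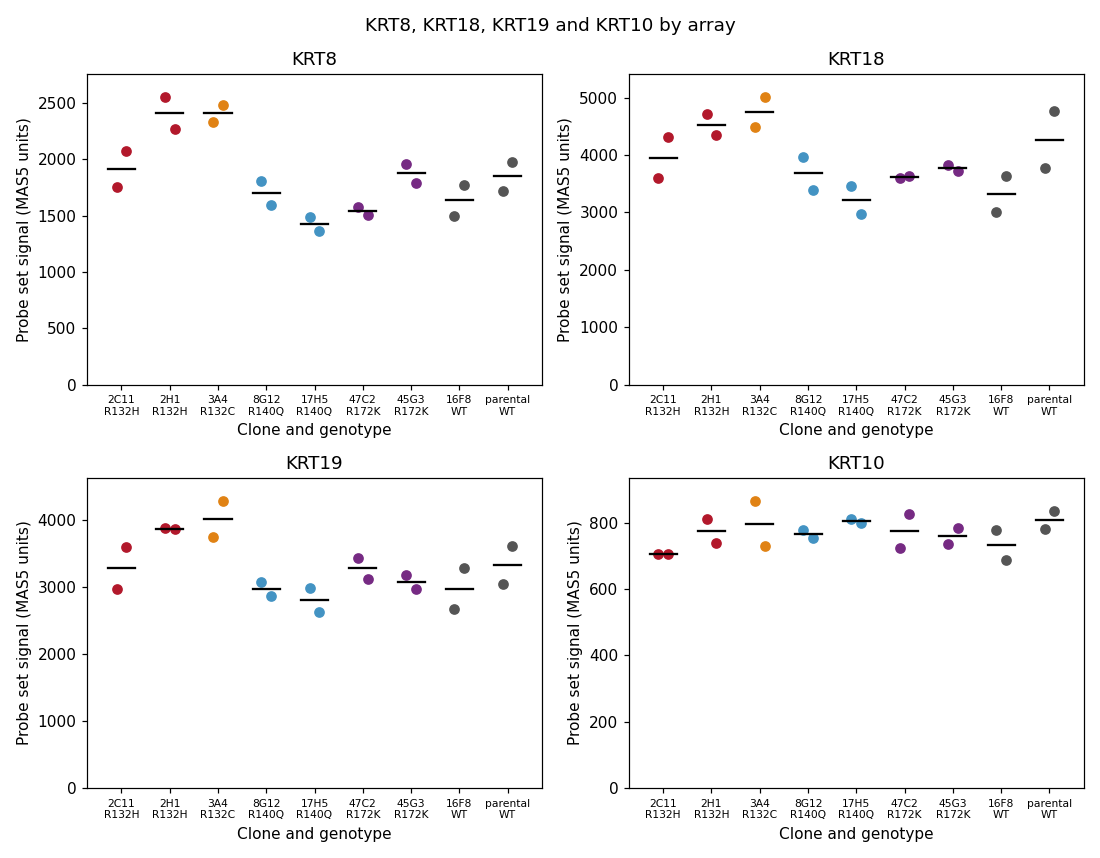
Signals of KRT8, KRT18, KRT19 and KRT10 in MAS5 units from 0, for the 9 clones along the horizontal axis; points are the 2 arrays of a clone and lines their mean. In the brightest probe set of each gene, shown here, KRT8, KRT18 and KRT19 are highest in 2H1 and 3A4, while KRT10 stays between 687.0 and 866.4.

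With the clone as the replicate, none of 32 member and genotype pairs passed against wild-type by limma, and 6 had an unadjusted p under 0.05. Over all genes 11.4% of such pairs did, 12.8% for R132H, 19.9% for R132C, 2.76% for R140Q and 10.3% for R172K. Those 6 were KRT20 in R132H, R132C and R172K, and KRT8, KRT18 and KRT19 in R132C. KRT20 differed from wild-type by -1.10 in R132H (95% interval -1.85 to -0.35, adjusted p = 0.252), -1.77 in R132C (-2.69 to -0.85, 0.074), 0.02 in R140Q (-0.73 to 0.77, 0.999) and -1.38 in R172K (-2.12 to -0.63, 0.394). These comparisons called 0.0319% of all genes for R132H, 1.14% for R132C, 0% for R140Q and 0% for R172K. R172K against R140Q, a comparison added after the data were seen, gave -1.40 for KRT20 (adjusted p = 0.495), and 0% of all genes passed. For the 7 mutant against the 2 wild-type clones no member passed and 0% of all genes did, with 1 member, KRT7, at an unadjusted p under 0.05 (-1.12, 95% interval -2.13 to -0.11, adjusted p = 0.682), as had 6.89% of all genes. With arrays as samples and the clone as a random block, KRT20 passed in R132C (0.0075) and R172K (0.0434). With parental alone as wild type, KRT7 passed in R132H (-2.42, 0.00943), R132C (-1.74, 0.0333), R140Q (-2.39, 0.0456) and R172K (-2.30, 0.0159), KRT15 passed in R172K (-0.86, 0.0419), and KRT7 passed in the 7 mutant clones as 1 group (-2.28, 0.0324).

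Over the 9 clone means KRT20 and KRT23 had a Pearson r of 0.901, a description given without a test. The clones form 2 clusters on KRT23, so the value mostly restates that split. KRT8, KRT18 and KRT19 varied together, with r of 0.931 (KRT8 and KRT18), 0.933 (KRT18 and KRT19) and 0.90 (KRT8 and KRT19). The pairs share arrays and scaling. With KRT23 these 3 genes had r of -0.58 (KRT8), -0.50 (KRT18) and -0.67 (KRT19). For KRT15 the value with KRT23 was -0.03, for KRT80 -0.15, for KRT10 0.26 and for KRT7 0.40.

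**Figure D5:**
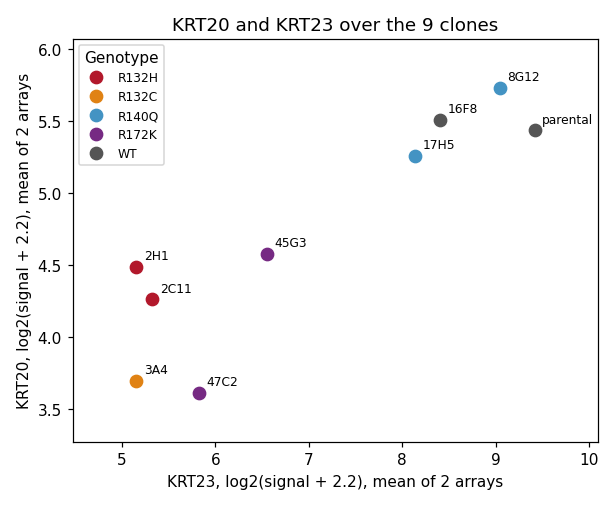
KRT20 against KRT23, both as log2(signal + 2.2) and the mean of 2 arrays, with a point per clone coloured by genotype. The 5 R132H, R132C and R172K clones lie low on both axes and the 4 R140Q and wild-type clones high on both.

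Of 12525 genes ranked by Pearson r with KRT23 over the 9 clone means, the closest were KIZ (0.971), IGIP (0.969), PPM1N (0.966), HLA-DMA (0.96) and LMTK3 (0.958). PPM1N averaged 17.2 to 26.5 in the 5 clones of low KRT23 and 53.4 to 61.9 in the other 4. The most opposed were RSKR (-0.973), CEMIP2 (-0.955) and ALDH16A1 (-0.953), and CEMIP2 averaged 490.0 to 822.2 in the 5 clones and 257.7 to 373.4 in the other 4. Both PPM1N and CEMIP2 were picked by their r with KRT23 over these same clones. Their split largely follows from that choice, and nothing is read from it. KRT20 stood at rank 114. CDH1, the E-cadherin gene, was at rank 119 (0.899), while ZEB1, a repressor of epithelial genes, was at -0.853. In the annotation KRT20 is the protein-coding gene directly beside KRT23 on one side, followed by KRT12 (0.1 to 3.0 in all arrays) and KRT10. On the other side lie KRT39, with no probe set, and KRT40 at 0.2 to 4.6, so KRT12 and KRT40 were below the array median in all 18 arrays.

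Beyond the members, 44 other keratins were looked for, 34 had a probe set and 5 passed the filter on low values (KRT13, KRT32, KRT9, KRT33A and KRT3). The other 29 did not exceed a signal of 16.2. KRT13, a type I keratin of stratified mucosa, averaged 11.2 ± 0.14 in 2C11, 81.9 ± 6.79 in 2H1 and 74.8 ± 0.49 in 3A4, against 27.1 ± 2.55 in parental (SD, n = 2 arrays). It rose by 1.52 ± 0.25 in 2H1 (adjusted p = 0.00017) and 1.40 in 3A4 (0.000314). It fell by 1.13 in 2C11 (0.00279), by 0.81 in 8G12 (0.03) and by 1.15 in 17H5 (0.00582). In 2H1 it exceeded 2C11 by 2.65 (2.22e-06). Both arrays of 2C11 (11.1 and 11.3) and both of 17H5, and 1 each of 8G12 and 47C2, were below the array median, so the sizes of these differences are uncertain. KRT32, a hair keratin, averaged 37.1 ± 10.5 in 2H1 and 30.8 ± 9.26 in 3A4, against 9.9 ± 3.54 in parental. Against parental its log2 rise was 1.71 in 2H1 and 1.45 in 3A4, and 2H1 exceeded 2C11 by 1.22. KRT32 reached the filter only through 2C11, 2H1 and 3A4, where it is highest, so these differences are given as values alone. Both parental arrays (7.4 and 12.4) were below the array median, so the sizes of the rises are uncertain. KRT9, KRT33A and KRT3 passed in no clone.

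Genes that anchor keratin filaments to desmosomes and hemidesmosomes were mixed. Of 16 tested, 9 were lower than in parental in at least 1 clone, as were 31.7% of all genes, and 5 higher in at least 1, as were 31.3%. The desmosomal cadherin DSG2 and the plaque protein DSP passed in no clone, and nor did the plakin DST. ITGA6, the alpha chain of the hemidesmosomal integrin, and MACF1, a cytoskeletal linker, were each lower in 3 clones. PNN, a nuclear protein also described at desmosomes, was higher in 6, with log2 changes of 0.18 to 0.53 over the 8 clones. The share of all genes called in as many clones was not computed. The medians of the list lay between -0.21 in 45G3 and 0.02 in 17H5.

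Among transcription factors known to act on epithelial genes, more were called lower than higher. Of 11 tested, 8 were lower in at least 1 clone (31.7% of all genes) and 3 higher in at least 1 (31.3%), and the list's median change was lowest in 3A4 (-0.68) and highest in 16F8 (-0.06). KLF5 was lower in 6 clones, EHF and CEBPB in 3 each, ELF3 in 7 and KLF4 in 7. The share of all genes lower in as many clones was not computed, and all comparisons share the parental arrays. GRHL2, an activator of epithelial junction genes, averaged 39.1 ± 3.89 in 2H1 and 88.1 ± 32.0 in 3A4, with 77.8 ± 29.5 in 47C2 and 219.2 ± 55.1 in 45G3, against 495.1 ± 51.8 in parental. These 4 clones passed as lower, 2H1 by -3.59, 3A4 by -2.50, 47C2 by -2.68 and 45G3 by -1.19. In 2C11 GRHL2 averaged 336.2 ± 67.6 and did not pass by limma (-0.57, adjusted p = 0.102), and 2H1 was lower than 2C11 by -3.02 (3.73e-07). A relation of these genes to the keratins was not tested.

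Intermediate filament genes outside the keratins were tested as 10 genes. Of these, 3 were lower than in parental in at least 1 clone (31.7% of all genes) and 5 higher in at least 1 (31.3%). The lamins LMNA and LMNB1 passed in no clone, LMNB2 was higher in 3 and SYNM, which encodes synemin, in 2. PRPH, which encodes the neuronal filament protein peripherin, was lower in all 8 clones, by -2.81 in 2H1 to -1.22 in 17H5. All 8 comparisons share the same parental arrays. VIM, the mesenchymal filament gene vimentin, was higher in the 5 clones of low KRT23, by 0.68 to 1.39, and lower in 17H5 (-0.72) and 16F8 (-0.81). CDH1 was lower in 7 clones and EPCAM in 5, while ZEB1 was higher in the 5 clones of low KRT23 and lower in 16F8. For none of these counts of clones was the share over all genes computed.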

How the data were processed

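The authors deposited MAS5 signals, intensity values on a linear scale, per the submitters' processing notes (version and settings: not given in the sources used here). Over the middle 96% of probe sets, array means were 150.01 to 150.02. Of 54675 probe sets, 41091 carry 1 symbol in the platform table, 1801 several and 11721 none, and 62 are controls. From these, log2(signal + 2.2) was taken, 2.2 being the 25th percentile. Probe sets entered the tests if 1 clone or more had both arrays at or above the array median, and a gene was represented by its brightest probe set, which left 12537 of 19775 genes. limma 3.58.1 in R 4.3.3 (lmFit, eBayes with trend, two-sided, Benjamini-Hochberg) compared 9 clones on 18 arrays (9 residual degrees of freedom) and genotypes on clone means (4; mutant against wild-type 7). R132C, with 1 clone, was taken to vary as other genotypes do. The members and lists were chosen with earlier results of these data known. Named genes were the members, other keratins passing the filter, the 5 genes most like KRT23 and the 3 most opposed, up to 6 of the brightest of each list, and ZEB1, CDH1, EPCAM and VIM. On simulated data with 200 of 12537 genes changed, 81% of 2-fold changes (log2 1) were recovered for 2C11 against parental. For R132H against wild-type 52% were recovered. In the data 25.9% and 0.0319% of all genes passed in these comparisons, so the shares recovered need not hold for the real tests. Other offsets, filters, normalization, probe sets, references, blocks and left-out arrays or clones were tried, of which an offset of 50 and leaving out 4 arrays were chosen after seeing the data. The number of arrays limits the precision. Promoters are from RefSeq, GRCh38.p14. Figures were drawn with matplotlib 3.10.9.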

Additional observations from a re-analysis of the deposited data

Results flagged for a closer look

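KRT15 in 3A4 stood apart from the 6 other mutant clones: its gap to the nearest was 0.704 of the range of the 7 clone means, above Dixon's 95% critical value. KRT9 in 17H5 stood apart in the same way (0.606), with signals of 14.1 and 31.3. KRT9 entered the tests only through 17H5, the 1 clone with both arrays at or above the array median, so a high value there was built in and nothing is read from it. Chance alone gives such a gap in about 5% of groups drawn from 1 population, and more than 1 gene was looked at. The mutant clones differ in genotype and 3A4 is the only R132C clone, so clone and genotype cannot be told apart for KRT15.

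Clones of one genotype differed by limma's test in KRT80, KRT13 and KRT23. KRT80 was higher in 2H1 than in 2C11 by 0.93 (log2) and KRT13 by 2.65, the latter against 2C11 arrays below the array median. In that comparison 2.14% of all genes were higher past the threshold. KRT32 was higher there by 1.22, a value alone, because it reached the filter only through 2C11, 2H1 and 3A4. KRT23 was lower in 17H5 than in 8G12 by a log2 change of -0.91, where 1.79% of all genes were lower. The KRT80 and KRT23 calls were each lost when certain single arrays were left out.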

How the results depend on the processing

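With parental as the reference, 29 changes passed. Of these, 19 passed in all 29 settings tried and 10 were lost in 1 or more, with 0 reversed. Leaving out 1 array gave 25 to 31. With 16F8 as the reference 16 changes passed, where 0.63% (8G12) to 26.3% (3A4) of all genes did, and some signs turned. KRT15 was then 0.32 in 2C11, 0.06 in 2H1, 0.13 (8G12), 0.09 (17H5), 0.23 (47C2) and 0 (45G3). KRT80 was 0.41 in 2C11, 0.27 in 8G12, 0.06 in 17H5 and 0.02 in 45G3, and KRT7 0.29 in 2H1, 0.58 in 3A4, 0.02 in 17H5 and 0.08 in 45G3. Within genotypes 2 differences passed, against 6 with quantile normalization, and the number also changed on leaving out arrays. The 6 include KRT23 in 47C2 against 45G3, a test that depends on the choice of KRT23, so nothing is concluded from it. The share of all genes past the threshold with that normalization is not given here. For genotypes against wild-type 0 passed, against 2 with the clone as a random block and 5 with parental alone (without 16F8), and leaving out 1 clone gave 0 to 5. For mutant against wild-type 0 passed, against 1 with parental alone, and leaving out 1 clone gave 0 to 1. Except where the setting names the samples used, the cause was not tested.

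Replicate numbers did not pair the arrays (r of -0.138 to 0.139 over 36 pairs of clones). The replicate block gave 29 changes against parental and 2 within genotypes, and this block together with random clones gave 1 in genotypes and 0 in mutant against wild-type. With an offset of 50 KRT23 was -2.63 in R132H and -2.13 in R172K against wild-type. Dim signals limit KRT20, and changes near 0 of bright genes are limited by 2 arrays per clone.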

Other observations

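Genes singled out here were chosen after their values were seen, and their comparisons with parental all share the same parental arrays. The share of all genes called in as many clones was not computed. PPL, which encodes the plakin periplakin, was lower than in parental in all 8 clones by limma's test, with log2 changes of -1.32 to -0.55. Its mean signal was 155.0 ± 0.35 in 2C11 and 158.6 ± 3.82 in 16F8, against 392.6 ± 47.4 in parental (SD, n = 2 arrays). PKP3, the desmosomal plakophilin, was lower in 5 clones, at 115.8 ± 14.4 in 2H1 against 236.4 ± 3.82 in parental. ITGB4, the beta chain of the hemidesmosomal integrin, was lower in 5 clones and higher in 1. It averaged 647.6 ± 10.1 in 2H1 and 206.9 ± 36.2 in 8G12, against 500.4 ± 81.2 in parental.

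GRHL1, a relative of GRHL2, was lower in all 8 clones (-1.86 to -0.68). CDX2, the intestinal homeobox factor, passed in none (-0.51 to 0.24). CA2, the carbonic anhydrase of colonocytes, was higher in all 8, by 0.51 in 2H1 to 1.48 in 2C11. Its mean was 515.5 ± 7.85 in 2H1 and 1013.4 ± 26.7 in 2C11, against 361.1 ± 8.56 in parental. SLC26A2, the other tested gene of the colonocyte list, was higher in 1 clone and lower in 1, with log2 changes of -0.4 to 0.34. KRT20, another gene of maturing colonocytes, was lower in 5 of the 8 clones.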
